A study of Xenopus tropicalis with 24 samples.

Results

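Intestine of wild-type (WT) Xenopus tropicalis tadpoles given T3, the active form of thyroid hormone, was compared with intestine of untreated WT tadpoles across all genes. The comparison was made on 6 of the 24 libraries of the series, taken by their labels. They were 3 of WT T3 tadpoles, treated at stage 54 with 5 nM T3 for 18 h at 25 °C, and 3 of WT control tadpoles of that stage and temperature without hormone. Intestine of tadpoles labelled TRDKO, in which both thyroid hormone receptor genes, thra and thrb, are knocked out, was sampled as TRDKO T3 and TRDKO control under those conditions with 3 libraries each, and tail of WT tadpoles as tail WT T3 and tail WT control. The labels name no transgene and do not describe the knockout alleles. Whether replicates are separate animals, and whether intestine and tail came from shared animals, is not given there, so p-values measure only how far these libraries differ, which may be technical. Whole intestine was used, and in bulk RNA fewer cells of a type and less RNA per cell cannot be told apart.

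Thyroid hormone acts in the nucleus through the receptors encoded by thra and thrb, which bind DNA as partners of retinoid X receptors (RXR). Without hormone these receptors recruit corepressor complexes to their target genes, and with hormone they exchange them for coactivators. In tadpoles, rising hormone drives the remodelling of the intestine, in which larval epithelial cells die, adult stem cells form, and the connective tissue and muscle layers thicken. Heat shock chaperones, NRF2 targets and immediate early genes are known as rapid responders to many kinds of stress and stimulation.

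The 6 WT libraries held 20480423 to 24699154 counted fragments and 18115 to 18550 genes with a count. Replicates of a WT intestine group differed by mean chi-square values of 1.088 to 2.144 over genes, where counting noise alone gives 1. Replicate 3 of TRDKO T3 was unlike the rest of its group, with chi-square values of 22.79 and 27.6 against the other replicates, and it entered the shared estimate of the spread. The biological coefficient of variation was 6.28% over the 12 intestine libraries and 1.95% without that library. The intestine markers cdx1, cdx2, vil1, fabp2, cdh17 and hnf4a were present at 129 CPM or more in each WT intestine library and at 1.239 CPM or less in WT tail libraries (CPM, counts per 1000000 after trimmed-mean scaling). WT control libraries carried high heat shock, NRF2 target and immediate early genes, as given below, and the part of those levels in any other difference between WT T3 and WT control was not tested.

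T3 treatment went with small changes in many genes and large changes in few. Of 15491 genes tested with edgeR's quasi-likelihood test, 60.5% passed an adjusted p of 0.05, 4692 of them higher (30.3%) and 4687 lower (30.3%) in WT T3. The median log2 fold change over all genes tested was 0.01, and 46.1% of the genes that passed changed by less than 0.5 on the log2 scale. At least 2-fold changes were found for 960 genes that rose (6.20%) and 979 that fell (6.32%). Provisional LOC symbols made up 349 of these rises and 169 of these falls. The 960 genes held 2.74 ± 0.0264% of fragments in WT T3 and 0.764 ± 0.0113% in WT control (SD, n = 3 each). The 979 genes held 1.84 ± 0.03298% in WT T3 and 6.18 ± 0.0314% in WT control. Both sets were chosen by the fold change between these groups, so the direction of each difference follows from the choice. All 3 WT T3 libraries lay above all 3 WT control libraries for 36.4% of genes and below them for 36.7%. Changes of at least 8-fold were found for 150 rises and 133 falls.

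**Figure D1:**
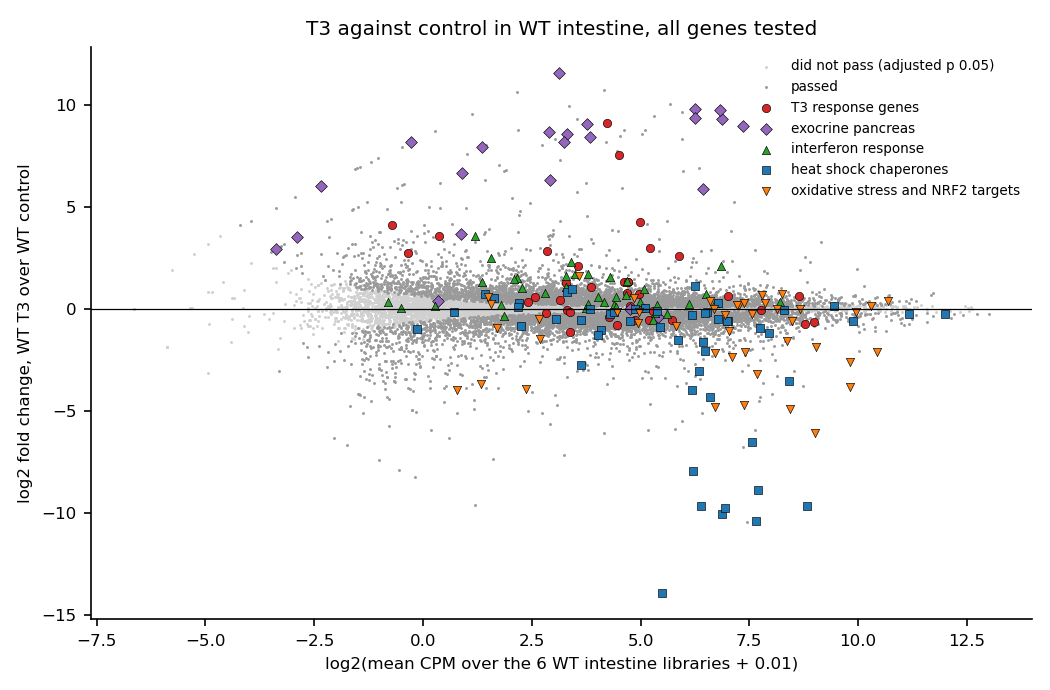
Each point is a gene, with the log2 of its mean CPM over the 6 WT intestine libraries on the x axis and its log2 fold change (WT T3 over WT control) on the y axis; colours and shapes mark 5 gene lists. T3 response genes and pancreas genes reach above 7 and 9, and heat shock genes reach below -9, while most genes lie near 0.

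Fold changes fell with the summed exon length of a gene. The median log2 fold change was 0.22 in the 10% of genes with the shortest exons and -0.29 in the 10% with the longest in WT intestine. In WT tail it was 0.14 in the shortest 10% and -0.34 in the longest, and in TRDKO intestine 0.01 and -0.01. The part of this gradient in the counts of each gene list below was not tested.

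The gene lists read against these shares. Lists in which more than 30.3% of members rose and fewer than that fell included T3 response genes, Hedgehog and BMP signalling, gut patterning homeobox genes, interferon response, mesenchyme, smooth muscle and exocrine pancreas. Lists with the reverse included heat shock chaperones, immediate early genes, NRF2 targets, cholesterol synthesis, ribosome biogenesis and the larval enterocyte.

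**Figure D2:**
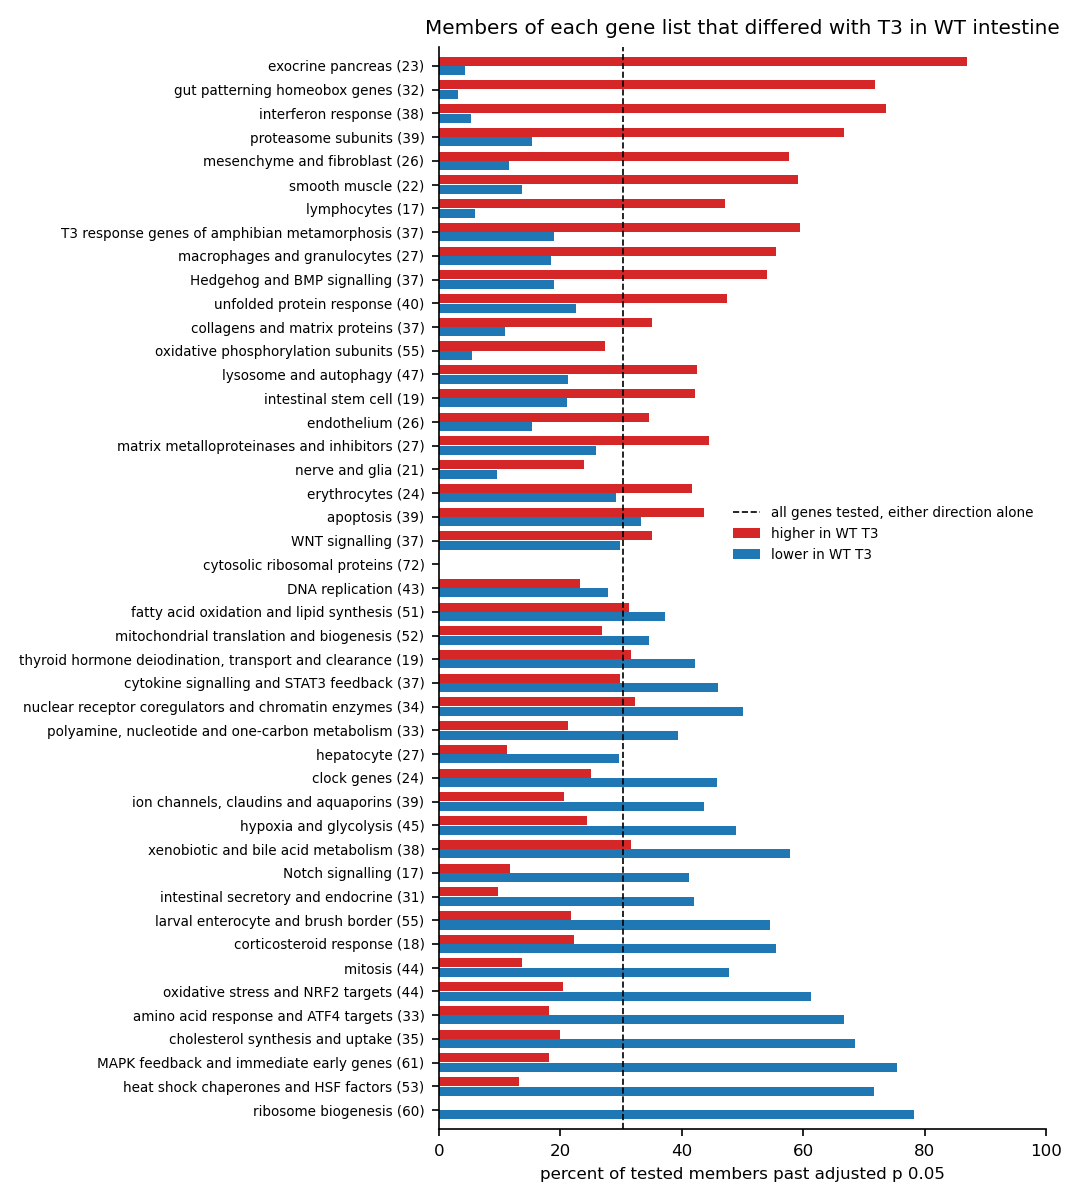
Bars give the percent of tested members of each list (number tested in parentheses) that were higher (red) or lower (blue) in WT T3 than in WT control at an adjusted p of 0.05; the dashed line is the 30.3% of all genes tested in either direction alone. Exocrine pancreas, homeobox and interferon lists are at the top and ribosome biogenesis, heat shock and immediate early genes at the bottom.

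Genes known to respond to T3 in metamorphosis rose more often than they fell. Of their 37 tested members, 22 rose (59.5%), 7 fell (18.9%) and 8 missed the threshold, beside 30.3% of all genes in each direction. At least 2-fold rises numbered 15, and the median log2 fold change was 0.62 against 0.01 for all genes. The summed level of the list differed little in WT, at 2417 to 2434 CPM in WT T3 and 2290 to 2319 in WT control. It was 2147 to 2159 in TRDKO T3 and 1607 to 1638 in TRDKO control. Without TRDKO T3 replicate 3, which tightened the shared spread, 11 members fell. In the libraries labelled TRDKO 24 of the 37 rose with T3 and 4 fell, beside 20.6% and 20.3% of all genes, or 29 and 6 without TRDKO T3 replicate 3. The receptor gene thrb, itself a T3 target, lies in the XENTR_10.0 annotation on chromosome 6 from 46687270 to 46933187 on the minus strand. It stood at 60.2, 59.2 and 60.7 CPM in WT T3, 3.12, 3.17 and 3.06 in WT control, 34.7, 38.1 and 25.8 in TRDKO T3 and 4.45, 5.06 and 4.502 in TRDKO control. WT T3 and WT control did not overlap, and both T3 groups were above both control groups. The log2 fold change in WT was 4.27 ± 0.13 (edgeR adjusted p = 3.8e-12). The leucine zipper factor thibz (chromosome 3 from 140193605 to 140202878 on the plus strand), a direct T3 target in frogs, had 44.1, 45.7 and 46.7 CPM in WT T3 against 0.296, 0.156 and 0.262 in WT control, and 29.1, 27.5 and 25.3 in TRDKO T3 against 0.112, 0.189 and 0.221 in TRDKO control. Its log2 fold change in WT was 7.52 ± 0.13 (edgeR adjusted p = 9.2e-15). The matrix metalloproteinase gene mmp11 (chromosome 1 from 153178402 to 153189730 on the minus strand), known from connective tissue around the dying larval epithelium, was at 37.9, 36.5 and 37.2 CPM in WT T3, 0.0845, 0.05195 and 0.0437 in WT control, 9.71, 9.16 and 7.699 in TRDKO T3 and 0.561, 0.946 and 0.662 in TRDKO control. WT control was near 0 and the lowest of the 4 intestine groups, and the log2 fold change in WT was 9.13 ± 0.19 (edgeR adjusted p = 4.6e-14).

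Among the other receptor genes, changes were small. The second receptor gene thra had 6.35, 6.81 and 8.27 CPM in WT T3 and 7.64, 9.56 and 10.01 in WT control, groups that overlapped, with a log2 fold change of -0.34 ± 0.31 that did not pass (edgeR adjusted p = 0.3598). It passed as a fall without TRDKO T3 replicate 3 (-0.34, edgeR adjusted p = 0.00145). TRDKO T3 held 11.4, 13.4 and 3.39 CPM of thra and TRDKO control 4.64, 5.01 and 4.502, so both knocked-out genes kept counts in each TRDKO library. Counts over a whole gene do not check a knockout whose allele is not described. Among RXR partners, rxrb rose by 0.30 ± 0.05 and rxra changed by -0.24 ± 0.10, a fall, on the log2 scale, while rxrg did not pass. The rxra call was lost when any 1 of the 6 WT libraries was left out (log2 fold changes of -0.28 to -0.20) and with upper-quartile scaling (-0.18).

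Several transcription factor genes were among the T3 response genes that rose. The nuclear factor I genes nfib, nfic and nfix encode DNA-binding factors that frogs induce early in the hormone response. For nfib the values were 103, 102 and 98.6 CPM in WT T3 against 16.3, 16.3 and 17.9 in WT control, and 104, 110.4 and 76.2 in TRDKO T3 against 21.1, 21.9 and 19.95 in TRDKO control. The log2 fold changes in WT were 2.59 ± 0.11 for nfib, 2.83 ± 0.15 for nfic and 3.56 ± 0.55 for nfix. The HMG-box factor gene sox4 had 65.9, 65.5 and 66.03 CPM in WT T3 and 8.02, 9.25 and 8.26 in WT control. All these genes stood higher in each WT T3 library than in any WT control library, with an edgeR adjusted p of at most 7.5e-05. Of the repressor bcl6 there were 35.04 CPM in WT T3 and 14.3 in WT control, and of dot1l, a histone H3 methyltransferase gene, 37.03 and 15.03 CPM. The zinc finger gene klf9, an immediate T3 target in vertebrates, had 39.1, 39.4 and 38.6 CPM in WT T3, 23.6, 25.2 and 21.1 in WT control, 57.4, 58.5 and 21.1 in TRDKO T3 and 8.19, 7.56 and 6.93 in TRDKO control. Its rise in WT, 0.75 ± 0.26 on the log2 scale, was smaller than those above (edgeR adjusted p = 0.02298), and WT control lay above TRDKO control. The klf9 call was lost without WT T3 replicate 1 or 2 or WT control replicate 1 or 3 (log2 fold changes of 0.67 to 0.75) and without the filter on low counts (0.75). Members that fell included per2, a clock gene (-1.16 ± 0.30), and the lipid droplet gene plin2 (-0.76 ± 0.08).

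**Figure D3:**
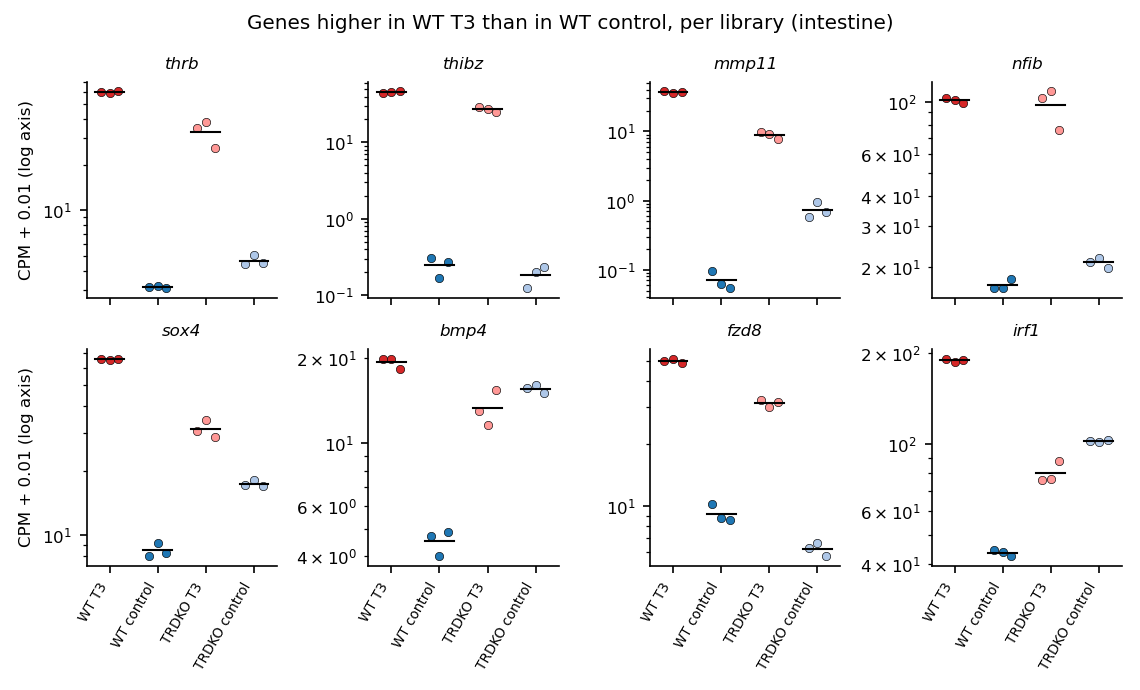
CPM plus 0.01 on a log axis per intestine library for 8 genes, with WT T3, WT control, TRDKO T3 and TRDKO control from left to right, a point per library and a line at the group mean. In each panel the 3 WT T3 points lie above the 3 WT control points; for bmp4 and irf1 the TRDKO T3 mean lies below the TRDKO control mean.

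Genes that clear or carry thyroid hormone moved in both directions. Of the 19 tested members, 6 rose (31.6%), 8 fell (42.1%) and 5 missed the threshold, beside 30.3% of all genes in each direction. The inactivating deiodinase gene dio3 was low, with 1.1999, 1.404 and 0.851 CPM in WT T3 and 0, 0 and 0.175 in WT control, and 0.495, 0.561 and 0.554 in TRDKO T3 against 5.72, 5.96 and 4.8998 in TRDKO control. It thus rose in WT (4.13 ± 0.54) and fell in TRDKO (-3.35 ± 0.25). The large amino acid and hormone transporter gene slc7a5 had 27.6, 27.4 and 25.5 CPM in WT T3 and 6.503, 6.29 and 5.899 in WT control. The glucuronosyltransferase gene ugt1a1, of a family that conjugates bilirubin and thyroid hormone, fell to 9.299, 10.2 and 10.2 CPM in WT T3, against 123, 118 and 124 in WT control, with 16.5 and 15.4 CPM on average in TRDKO T3 and TRDKO control. Among 34 coregulators and chromatin enzymes 11 rose (32.4%) and 17 fell, beside 30.3% of all genes in each direction. Their median log2 fold change was -0.24. These genes are long, with a median summed exon length of 5913.5 bases against 2675 over all genes tested. Genes of 4696 to 6289 bases had a median log2 fold change of -0.18, and the longest 10% of genes -0.29. The part of exon length in these falls was not tested. The Polycomb methyltransferase gene ezh2 rose by 1.02 ± 0.06, while the coactivator gene ncoa1 changed by -1.67 ± 0.28 and the H3 lysine methyltransferase gene kmt2a by -2.15 ± 0.30, both falls.

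Matrix and signalling genes of the connective tissue rose more often than they fell. Among proteases and inhibitors of the matrix, 12 of 27 rose (44.4%) and 7 fell (25.9%), beside 30.3% of all genes in each direction. Without TRDKO T3 replicate 3, 11 fell, and 5640 of all genes fell against 4687 in the main fit. After mmp11, the largest rises in that list with at least 1 CPM were the collagenase gene mmp13l (2.75 ± 0.28) and the serine protease gene htra1 (2.67 ± 0.19). The gelatinase gene mmp2 had 13.7 CPM in WT T3 and 5.71 in WT control, its membrane-bound activator gene mmp14 37.4 and 14.98, and the inhibitor gene timp2 19.6 and 9.32. In TRDKO control these stood at 15.2, 30.5 and 16.2 CPM, above WT control. The collagens and matrix list was close to the background in rises, with 13 of 37, and 4 fell, or 9 without that library. The fibronectin gene fn1 rose by 0.51 ± 0.09 and col18a1, a basement membrane collagen gene, changed by -1.17 ± 0.07, a fall.

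Hedgehog and BMP signalling had 20 rises and 7 falls among 37 tested members and a median of 0.60. Sonic hedgehog (shh), a ligand of the gut epithelium, had 32.9, 33.01 and 31.9 CPM in WT T3 against 18.1, 19.8 and 19.1 in WT control. The ligand gene bmp4, a target of Hedgehog signalling in gut mesenchyme, had 19.8, 19.8 and 18.2 CPM in WT T3 against 4.69, 4.0004 and 4.85 in WT control, and 12.9, 11.6 and 15.3 in TRDKO T3 against 15.6, 15.98 and 15.01 in TRDKO control. Each WT T3 library was above each WT control library for both ligands, and for bmp4 WT control was the lowest of the 4 intestine groups. The Hedgehog effector gene gli2 rose by 1.49 ± 0.13 and the BMP antagonist gene grem1 by 1.26 ± 0.09, while the BMP target gene msx2 fell (-1.18 ± 0.18).

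WNT genes rose and fell at close to the shares of all genes. Of 37 tested members, 13 rose (35.1%), 11 fell (29.7%) and 13 missed the threshold, beside 30.3% of all genes in each direction. The receptor gene fzd8 had 50.2, 51.3 and 49.1 CPM in WT T3, 10.3, 8.73 and 8.56 in WT control, 32.6, 30.02 and 31.9 in TRDKO T3 and 6.28, 6.62 and 5.74 in TRDKO control. It was higher with T3 in both genotypes, by 2.45 ± 0.07 in WT and 2.34 ± 0.08 in TRDKO on the log2 scale. The noncanonical ligand gene wnt5a rose by 1.87 ± 0.11, whereas the receptor gene fzd5 and the coreceptor gene lrp5 fell (-0.85 ± 0.20 and -0.80 ± 0.12). Intestinal stem cell genes moved both ways. Of the 19 tested members, 8 rose (42.1%), 4 fell (21.1%) and 7 missed the threshold. The crypt gene olfm4 had 40.8, 39.5 and 39.6 CPM in WT T3 and 11.99, 13.5 and 12.02 in WT control, and 72.5, 68.2 and 79.1 in TRDKO T3 against 4.97, 5.77 and 3.88 in TRDKO control. The WNT target and stem cell receptor gene lgr5 fell to 3.0997, 2.85 and 2.17 CPM in WT T3, against 6.25, 6.39 and 7.56 in WT control. Among Notch genes 2 of 17 rose and 7 fell, with notch2 at -1.14 ± 0.30 on the log2 scale. The 2 rises became 4 without TRDKO T3 replicate 3, and 1 without WT T3 replicate 1 or 2 or WT control replicate 1 or 3.

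Genes of positional identity rose together. Of the 32 tested members, 23 rose, 1 fell and 8 missed the threshold, with a median of 0.67. The Hox genes among them, which set position along the body and gut axis, numbered 20 tested, of which 17 rose and 0 fell with edgeR, 0 fell at an unadjusted p of 0.05 and 0 with DESeq2. In TRDKO intestine 0 of the 20 Hox genes rose with T3 and 13 fell, beside 20.6% and 20.3% of all genes there. For these 20 genes the 0 rises in TRDKO intestine held at an unadjusted p of 0.05 and with DESeq2. Their summed level was 52.7 to 54.1 CPM in WT T3, 25.97 to 27.97 in WT control, 40.4 to 44.96 in TRDKO T3 and 59.2 to 63.1 in TRDKO control, so WT control was lowest and TRDKO control highest. The gene hoxb6 had 5.499, 4.72 and 5.01 CPM in WT T3 and 1.18, 1.35 and 1.79 in WT control, and hoxc8 11.1, 9.91 and 9.69 and 3.67, 3.79 and 3.63. The intestinal identity factor gene cdx1 had 297, 293 and 299 CPM in WT T3, 132, 133 and 129 in WT control, 228, 229 and 223 in TRDKO T3 and 185, 188 and 189 in TRDKO control. Its relative cdx2 was at 326, 317 and 312 CPM in WT T3 against 156, 151 and 151 in WT control. The foregut factor gene sox2, chosen after its value was seen, fell to 0.19998, 0.128 and 0.142 CPM in WT T3, against 0.971, 0.883 and 0.961 in WT control. None of these WT groups overlapped, and the edgeR adjusted p was at most 5.7e-05.

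Genes of the larval enterocyte and its brush border fell more often than they rose. Of 55 tested members, 12 rose (21.8%), 30 fell (54.5%) and 13 missed the threshold, beside 30.3% of all genes in each direction, with a median of -0.24. In TRDKO intestine 42 of the 55 rose with T3 and 7 fell, beside 20.6% and 20.3% of all genes there. The summed level of the list was 65674 to 69989 CPM in WT T3 and 72578.5 to 76798 in WT control. It was 74346 to 80312 in TRDKO T3 and 56330 to 60288 in TRDKO control, so TRDKO control was lowest. Brush border enzyme genes that fell included mgam, a starch-digesting glucosidase, at 2438, 2373 and 2393 CPM in WT T3 against 3748, 3841 and 3709 in WT control. The peptidase gene enpep averaged 1999 CPM in WT T3 and 2874 in WT control, and the microvillus protein gene vil1 1563 and 2729.6. The endocytic receptor genes lrp2 and cubn fell by more, with log2 fold changes of -3.02 ± 0.38 and -1.85 ± 0.09.

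Nutrient and phosphate carriers were among the largest rises in absolute level. The sodium phosphate cotransporter gene slc34a3 had 4477, 4201 and 4258 CPM in WT T3 and 2481, 2548 and 2444 in WT control, a log2 fold change of 0.79 ± 0.06. Its relative slc34a2, the main intestinal form in mammals, had 1641, 1581 and 1596 CPM in WT T3 against 425, 412 and 422 in WT control, and 1892, 1853 and 1849.6 in TRDKO T3 against 541, 561 and 553 in TRDKO control. Both were higher in each WT T3 library than in any WT control library. The peptide carrier gene slc15a1 averaged 3986 CPM in WT T3 and 2529.9 in WT control, the monocarboxylate carrier gene slc5a12 2780.2 and 1992, the citrate carrier gene slc13a2 2017 and 1288, and the amino acid exchanger subunit gene slc7a7 2533 and 2072. The bile acid carrier gene slc10a2 had 126, 122 and 129 CPM in WT T3 and 21.96, 22.9 and 22.3 in WT control, a rise of 2.49 ± 0.05 on the log2 scale. Genes of ion channels, claudins and aquaporins fell in 17 (43.6%) and rose in 8 (20.5%) of 39 cases, beside 30.3% of all genes in each direction. Their median log2 fold change was 0.02, near the 0.01 of all genes. The sodium potassium chloride cotransporter gene slc12a1, known from kidney, had 15.998, 16.5 and 16.6 CPM in WT T3 and 0.0422, 0 and 0.0874 in WT control. With few counts in WT control, the ratio of its scaled levels was 359.9 (exact 95% counting interval 123 to 1748). Secretory and endocrine genes fell more often than they rose, 13 (41.9%) against 3 (9.68%) of 31, beside 30.3% of all genes in each direction. The falls included the mucin gene muc5ac (-2.32 ± 0.17) and the endocrine factor gene nkx2-2 (-0.95 ± 0.13). The summed level of the list did not fall, at 2008 to 2079 CPM in WT T3 and 1978 to 2000 in WT control.

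Other genes with large changes included a forkhead factor, a receptor and enzymes that clear foreign compounds and vitamin D. The forkhead factor gene foxo6 had 36.5, 34.96 and 35.4 CPM in WT T3, 0, 0 and 0.0437 in WT control, 11.2, 12.5 and 10.6 in TRDKO T3 and 0.0748, 0.0473 and 0.132 in TRDKO control, so both T3 groups were above both control groups. With few counts in WT control the ratio of its WT levels was 2344 (exact 95% counting interval 420.2 to 92613). The orphan receptor gene gpr83 (chromosome 8 from 41113236 to 41127078 on the plus strand) had 14.998, 15.99 and 14.7 CPM in WT T3 and 0.0422, 0.05195 and 0 in WT control, against 0.396, 0.346 and 0.431 in TRDKO T3 and 0.1495, 0.0473 and 0.177 in TRDKO control, a WT ratio of 503 (exact 95% counting interval 139 to 4157). Only the WT T3 libraries, of the 12 intestine libraries, held it above 1 CPM. The xenobiotic oxidase gene cyp1a1 (chromosome 3 from 94140137 to 94177848 on the plus strand), a target of the aryl hydrocarbon receptor and a member of the xenobiotic and bile acid metabolism list, in which 12 of 38 rose and 22 fell, had 166, 158 and 157 CPM in WT T3, 1.48, 1.25 and 1.22 in WT control, 29.97, 32.6 and 32.5 in TRDKO T3 and 3.81, 3.55 and 3.84 in TRDKO control. Its log2 fold change was 6.92 ± 0.08 in WT and 3.08 ± 0.07 in TRDKO intestine, and ahrr, the repressor of that receptor and its target, rose by 1.89 ± 0.15 in WT. The vitamin D catabolic gene cyp24a1 moved the other way, at 1.65, 1.701 and 2.13 CPM in WT T3 against 111, 112 and 107 in WT control (-5.91 ± 0.13 on the log2 scale). Means of 5.199 CPM in TRDKO T3 and 2.39 in TRDKO control placed WT control as the highest intestine group for cyp24a1.

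Heat shock chaperones were among the largest falls. Of 53 tested members, 7 rose, 38 fell and 8 missed the threshold, with a median of -0.61 and 21 falls of at least 2-fold. Inducible HSP70 genes, whose products refold damaged proteins, were near 0 in WT T3. The gene hsp70 (chromosome 8 from 75108296 to 75111281 on the plus strand) had 1.3999, 0.936 and 0.993 CPM in WT T3, 914, 904 and 896 in WT control, 0.545, 0.475 and 0.246 in TRDKO T3 and 0.897, 0.284 and 0.618 in TRDKO control. For hspa1b (chromosome 4 from 23980248 to 23982587 on the plus strand) the values were 0.29997, 0.3403 and 0.236 CPM in WT T3, 399, 408 and 391 in WT control, 0.347, 0.302 and 0.123 in TRDKO T3 and 0.224, 0.0946 and 0.221 in TRDKO control. WT control was high for both genes and the 9 other intestine libraries were below 2 CPM. Of hsp90aa1.2, an inducible HSP90 gene (chromosome 8 from 97449455 to 97457300 on the minus strand), the WT T3 libraries held 0 counts and WT control 86.6, 88.997 and 93.99 CPM, at least 1937-fold lower in WT T3 at a floor of 3 counts over the group. The neighbouring hsp90aa1.1 averaged 0.588 CPM in WT T3 and 146 in WT control. Small heat shock genes that lie side by side on chromosome 7, hsp30c, hsp30d and hsp30e, averaged 0.216, 0.275 and 0.875 CPM in WT T3, against 235, 246 and 414 in WT control. Copies of the HSP70 and hsp30 families are near-identical, and the counting could split reads between them, so their single values are uncertain.

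Cochaperones fell by less. The HSP40 gene dnajb1 had 55.4, 53.8 and 50.9 CPM in WT T3 and 628, 639 and 615 in WT control, the HSP70 exchange factor gene bag3 9.099, 8.55 and 8.697 and 138, 136 and 139, and the HSP90 activator gene ahsa1 9.65, 9.102 and 9.26 and 186, 184 and 182. Constitutive chaperones changed by less, with hsp90ab1 at -0.25 ± 0.06 and hspa8 at -0.23 ± 0.08 on the log2 scale. The hspa8 call was lost without WT T3 replicate 2 or 3 or WT control replicate 2 (-0.22 to -0.20) and with upper-quartile scaling (-0.17). The factor gene hsf1, the main activator of heat shock genes, averaged 30.4 CPM in WT T3 and 57.4 in WT control. The 7 members that rose included the muscle small heat shock genes hspb6, hspb7 and hspb8 and the collagen chaperone gene serpinh1 (0.98 ± 0.08). In TRDKO intestine 8 members rose (15.1%) and 12 fell (22.6%) with T3, near the 20.6% and 20.3% of all genes there. Without TRDKO T3 replicate 3, 12 rose (22.6%) and 23 fell (43.4%), beside 29.7% and 28.1% of all genes. In TRDKO control 38 of 53 members were lower and 6 higher than in WT control, beside 28.7% and 29.1% of all genes, a comparison that shares the WT control libraries. With upper-quartile scaling the share of its calls that were lower in TRDKO control was 38.6%, against 49.7% in the main scaling.

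WT tail showed a part of these falls. Replicates 1 and 3 of tail WT control did not differ detectably beyond the sampling noise (mean chi-square 1.013, p = 0.1255 over genes) and were counted as 1 sample, so that group has 2 values. In tail hsp70 had 1.14, 0.841 and 1.34 CPM in tail WT T3 and 137 and 140.1 in tail WT control, and hspa1b 0.397, 0.593 and 0.383 and 59.2 and 58.4. The cochaperones differed less there, with bag3 at 21.8, 19.5 and 20.1 CPM in tail WT T3 against 27.2 and 26.9 in tail WT control and dnajb1 at 57.5, 61.4 and 58.7 against 71.9 and 69.6. Tail hsp90aa1.2 was not lower in T3, at 1.93, 1.78 and 1.43 CPM in tail WT T3 and 1.05 and 1.01 in tail WT control. The HSP70 genes thus fell by more than 6 on the log2 scale in both organs, while bag3 and dnajb1 fell by more than 3 in intestine and by less than 0.5 in tail.

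**Figure D4:**
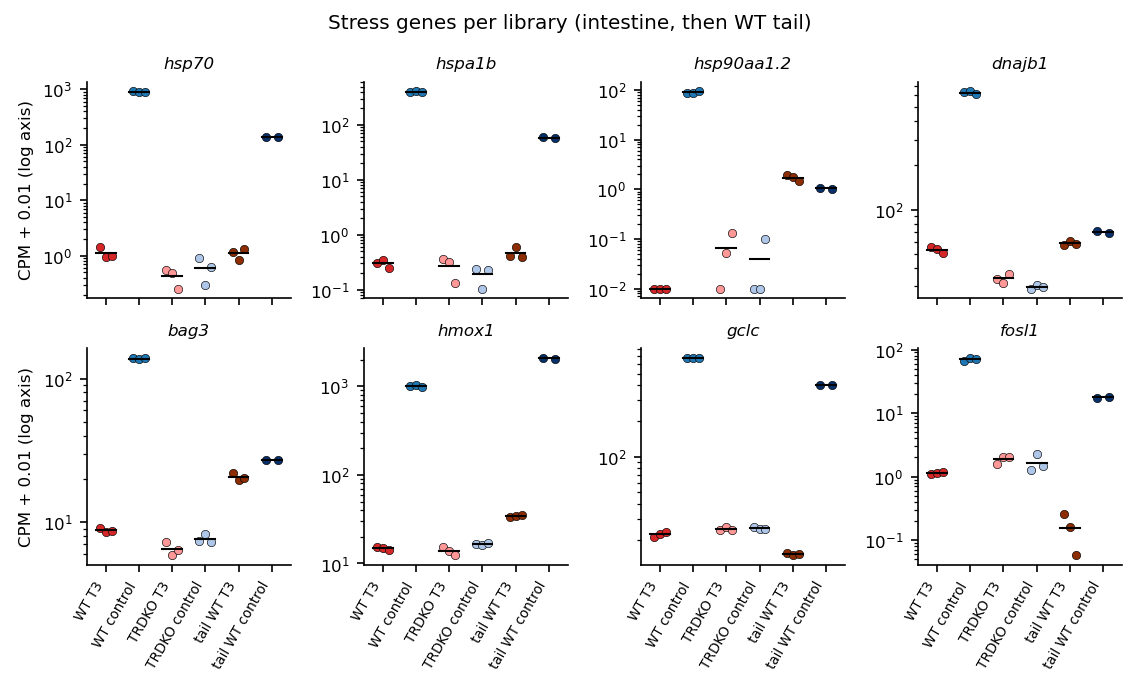
CPM plus 0.01 on a log axis per library for 8 stress genes, in intestine WT T3, WT control, TRDKO T3 and TRDKO control and in tail WT T3 and tail WT control from left to right, with a line at each group mean. Intestine WT control is the highest intestine group in each panel, and tail WT control is above tail WT T3 in each panel but hsp90aa1.2.

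Genes of the oxidative stress response fell along with the chaperones. Of 44 tested members, 9 rose, 27 fell and 8 missed the threshold, with a median of -0.55. The heme-degrading enzyme gene hmox1 had 15.3, 15.1 and 14.1 CPM in WT T3, 1007, 1040.3 and 990.1 in WT control, 15.2, 13.8 and 12.4 in TRDKO T3 and 16.7, 16.3 and 17.04 in TRDKO control. Genes of glutathione synthesis followed, with gclc, the catalytic subunit of its first enzyme, at 21.2, 22.5 and 23.2 CPM in WT T3 against 670.2, 672 and 676 in WT control. The other subunit gene gclm and the sulfiredoxin gene srxn1, both chosen after their values were seen, changed by -4.69 ± 0.09 and -3.92 ± 0.16. WT T3 lay close to both TRDKO groups and WT control far above, as gclc averaged 24.7 CPM in TRDKO T3 and 24.98 in TRDKO control. The cystine importer gene slc7a11 changed by -3.69 ± 0.28, a fall, the autophagy receptor gene sqstm1 averaged 520.3 CPM in WT T3 and 2232 in WT control, and the glutathione transferase gene gstp1 256 and 1551. The metallothionein gene mt4 had 122, 113 and 114 CPM in WT T3 and 1633, 1776 and 1625 in WT control. In WT tail hmox1, gclc, gstp1 and slc7a11 also fell, with log2 fold changes of -5.91 ± 0.06, -4.73 ± 0.05, -6.47 ± 0.10 and -6.84 ± 0.10. Not all members fell, since the peroxidase genes prdx2, prdx5 and gpx4 rose (1.60 ± 0.12, 0.68 ± 0.08 and 0.74 ± 0.10), and nqo1, a classical NRF2 target chosen after its value was seen, changed by -0.52 ± 0.14.

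Amino acid and endoplasmic reticulum stress genes gave mixed pictures. Among targets of ATF4, the factor of the amino acid response, 22 of 33 fell and 6 rose. The glutamine importer genes slc38a2 and slc1a5 fell to 56.7 and 7.52 CPM in WT T3, against 792 and 64.7 in WT control. The unfolded protein response list had 19 rises and 9 falls of 40. Its falls included hspa5, the main chaperone of the endoplasmic reticulum, at 186, 188 and 179.8 CPM in WT T3 against 404, 407 and 409 in WT control, and the factor gene ddit3 (-1.46 ± 0.07).

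Immediate early genes, which cells induce within minutes of a stimulus, fell more often than they rose. Of 61 tested members, 11 rose (18.0%), 46 fell (75.4%) and 4 missed the threshold, beside 30.3% of all genes in each direction, with a median of -0.79. The AP-1 subunit gene fosl1 had 1.0999, 1.15 and 1.18 CPM in WT T3, 66.8, 73.5 and 71.4 in WT control, 1.59, 2.03 and 2.03 in TRDKO T3 and 1.27, 2.22 and 1.46 in TRDKO control. For fos the values were 47.3, 46.4 and 48.4 CPM in WT T3 against 113, 111 and 114 in WT control, and for jun 64.04, 64.9 and 67.4 against 221, 221 and 223. The stress factor gene atf3 averaged 14.8 CPM in WT T3 and 64.8 in WT control, the growth factor response gene egr1 89.9 and 243, and the small Maf factor gene maff 36.4 and 211. All these groups were apart, with an edgeR adjusted p of at most 3.4e-11. The phosphatase genes dusp1, dusp5 and dusp6, which switch off MAP kinases, changed by -0.89 ± 0.05, -1.91 ± 0.07 and -0.72 ± 0.04. Members that rose were led by klf4, a factor of epithelial differentiation, at 19.5, 20.5 and 21.4 CPM in WT T3 against 7.73, 6.86 and 5.99 in WT control, and the kinase gene sik1 (1.13 ± 0.06). In TRDKO intestine 19 of these 61 genes rose and 17 fell with T3, beside 20.6% and 20.3% of all genes there. In TRDKO control 45 of the 61 were lower and 3 higher than in WT control, beside 28.7% and 29.1% of all genes, a comparison that shares the WT control libraries. In WT tail 43 of 62 tested members fell and 6 rose with T3, beside 29.3% and 28.8% of all genes there.

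Immune genes split by pathway. Interferon response genes rose in 28 of 38 cases and fell in 2 (4 without TRDKO T3 replicate 3), with a median of 0.58. The transcription factor gene irf1, which interferon induces, had 191, 187 and 189 CPM in WT T3, 44.5, 43.8 and 42.6 in WT control, 75.8, 76.6 and 87.5 in TRDKO T3 and 102, 101 and 103 in TRDKO control. It was highest in WT T3 and lowest in WT control. The antiviral gene ifit5 had 4.15, 4.13 and 4.44 CPM in WT T3 and 0.338, 0.2598 and 0.437 in WT control, the guanylate-binding protein gene gbp2 17.5 and 3.54 on average, and psmb9, a subunit of the immunoproteasome, 17.1 and 5.29. The summed level of the list was 1427 to 1435 CPM in WT T3, 971 to 983 in WT control, 972 to 982 in TRDKO T3 and 929 to 933 in TRDKO control, so the WT T3 libraries stood above the others. Lymphocyte markers rose in 8 of 17 cases and 8 missed the threshold. Among the rises was foxp3, the factor of regulatory T cells, at 6.15, 4.93 and 5.06 CPM in WT T3 against 1.18, 1.51 and 1.05 in WT control. The summed lymphocyte level hardly differed, at 139.3 to 142.8 CPM in WT T3 and 138.5 to 138.96 in WT control. Macrophage and granulocyte markers rose in 15 of 27 and fell in 5 (3 with DESeq2). Genes of cytokine signalling fell in 17 and rose in 11 of 37. There the NF-kappaB feedback gene nfkbia and the factor genes cebpb and relb fell (-1.55 ± 0.06, -1.77 ± 0.07 and -1.77 ± 0.05), whereas the inhibitor gene socs1 rose (1.72 ± 0.12).

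Genes of growth and protein turnover moved by smaller amounts. Ribosome biogenesis genes fell in 47 of 60 cases, with a median of -0.39, and 0 rose with edgeR, with 0 at an unadjusted p of 0.05 and 0 with DESeq2, and 1 without TRDKO T3 replicate 3. The nucleolar genes heatr1 and nolc1 fell most among those named (-1.24 ± 0.11 and -1.09 ± 0.06). Of 72 cytosolic ribosomal protein genes 0 passed in either direction with edgeR, 0 had an unadjusted p under 0.05 and 0 passed with DESeq2, and their log2 fold changes ranged from -0.09 to 0.21. Without TRDKO T3 replicate 3, 30 of these genes passed as rises. Proteasome subunits rose in 26 and fell in 6 of 39, with a median of 0.23. Mitotic genes fell in 21 (47.7%) and rose in 6 (13.6%) of 44, beside 30.3% of all genes in each direction. In TRDKO intestine 42 of the 44 rose with T3, beside 20.6% of all genes there. The 6 rises in WT became 3 without WT T3 replicate 2 or WT control replicate 1. The kinetochore motor gene cenpe had 3.005 CPM in WT T3 and 5.798 in WT control, against 15.6 in TRDKO T3 and 8.41 in TRDKO control. The cell cycle inhibitor gene cdkn1a rose to 163, 165 and 157 CPM in WT T3, against 60.4, 63.4 and 62.8 in WT control, and the mitophagy gene bnip3 to 1545 against 720.3.

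Genes of lipid and sugar metabolism also moved. Cholesterol synthesis and uptake genes fell in 24 of 35 cases and rose in 7, with a median of -0.56. The lipoprotein receptor gene ldlr had 49.3, 48.5 and 48.4 CPM in WT T3, 212, 211 and 214 in WT control, 138, 141 and 136 in TRDKO T3 and 225, 223 and 231 in TRDKO control, lower with T3 in both genotypes. Sterol exporter genes abcg8 and abca1 rose (0.77 ± 0.08 and 0.63 ± 0.13), as did cyp7a1, the first enzyme gene of bile acid synthesis (1.23 ± 0.04). The gluconeogenic gene pck1 averaged 1021 CPM in WT T3 and 2164 in WT control, and the clock factor gene arntl 5.67 and 21.5.

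Among genes of other tissues, those of the exocrine pancreas differed most often. Exocrine pancreas genes, which encode digestive enzymes and their cofactors, rose in 20 of 23 tested cases with a median of 8.15. Their summed level over 31 members was 1473 to 1503 CPM in WT T3, 81.6 to 83.96 in WT control, 374 to 463 in TRDKO T3 and 8447 to 8993 in TRDKO control. The order was thus reversed between genotypes. The lipase gene pnlip changed by -0.40 ± 0.07, a fall, and stood at 36.6 CPM in WT T3 and 48.4 in WT control, unlike the other members named. The nuclease gene dnase1 had 17.998, 16.97 and 16.97 CPM in WT T3 and 0 counts in WT control, at least 379-fold higher in WT T3 at a floor of 3 counts over the group. In WT control 8 members were at 0, among them the trypsinogen gene prss1 and the acinar factor gene ptf1a. Hepatocyte genes fell in 8 of 27 and rose in 3, or 5 without TRDKO T3 replicate 3. The 29.6% that fell by any amount was close to the 30.3% of all genes. Among them was the heme carrier gene hpx at 0.09999, 0.0851 and 0.189 CPM in WT T3, 18.8, 19.5 and 17.7 in WT control, 77.02, 71.5 and 87.4 in TRDKO T3 and 0.7102, 0.804 and 0.5297 in TRDKO control. The hepatocyte list had a median of -0.53. Of its members, 7 fell and 2 rose at least 2-fold, beside 6.32% and 6.20% of all genes. The summed hepatocyte level was 3023 to 3154 CPM in WT T3 and 3906 to 4025 in WT control. It was 5659 to 6200 in TRDKO T3 and 3375 to 3548 in TRDKO control. The part of pancreas or liver RNA in any other difference was not tested.

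**Figure D5:**
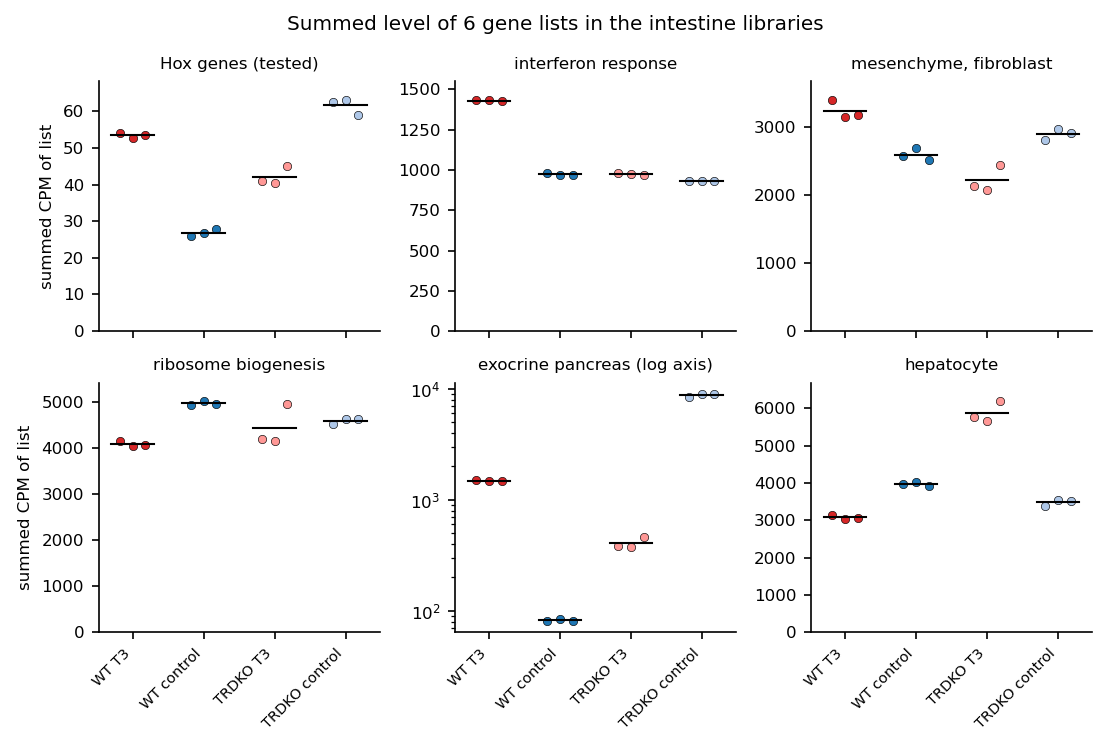
Summed CPM of 6 gene lists per intestine library, a point per library with a line at the group mean, in WT T3, WT control, TRDKO T3 and TRDKO control from left to right; the pancreas panel has a log axis. WT T3 is above WT control for Hox, interferon, mesenchyme and pancreas genes and below it for ribosome biogenesis and hepatocyte genes.

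Smooth muscle and mesenchyme genes rose more often than they fell. Smooth muscle genes rose in 13 of 22 and fell in 3, or 5 without TRDKO T3 replicate 3. The contractile genes acta2 and tagln averaged 2502 and 2017 CPM in WT T3, against 1915 and 1349 in WT control. Their regulator gene srf fell (-0.97 ± 0.05). Mesenchyme genes rose in 15 of 26 and fell in 3, with the matrix gene dpt at 7.05, 5.91 and 7.23 CPM in WT T3 against 1.65, 1.61 and 1.79 in WT control. The gut mesenchyme factor gene nkx2-3 rose by 1.30 ± 0.08. Endothelial genes were closer to the background, with rises in 9 of 26 (34.6%), falls in 4 and a median of 0.11, and their largest rise was that of the receptor gene aplnr (1.97 ± 0.13). Nerve and glia genes rose in 5 of 21 (23.8%) and fell in 2 (9.52%), beside 30.3% of all genes in each direction. Their summed level was 330.1 to 334 CPM in WT T3 and 369 to 377 in WT control. Summed mesenchyme levels were 3136 to 3392 CPM in WT T3 and 2509.9 to 2687 in WT control, and did not overlap. Of 24 red cell genes, 10 rose (41.7%) and 7 fell (29.2%), the falls close to the share of all genes. The globin gene hba1 was at 1.0999, 1.83 and 1.37 CPM in WT T3 and 0.0422, 0 and 0 in WT control.

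The genes changed by at least 2-fold in WT intestine were then read in 2 comparisons whose groups held no library of it. Both were fitted together with the WT intestine libraries, which entered the filter, the scaling and the estimate of the spread. In WT tail 28.8% of the 17887 genes tested there rose and 29.3% fell. Of the 960 that rose in WT intestine, 434 (45.2%) also rose in WT tail, where 29.7% of all genes tested in both did, and 91 (9.48%) fell. Of the 979 that fell, 607 (62.0%) also fell in WT tail, beside 29.7% of all genes, and 83 (8.48%) rose. Tail WT control also carried high stress genes, with a summed level of oxidative stress and NRF2 targets of 13919 to 14201 CPM. In tail WT T3 that level was 4127 to 4131 CPM. The part of stress genes in the falls shared with tail was not tested. These shared genes made up 9.45% of the rises and 13.2% of the falls in tail. In TRDKO intestine, 260 of the 960 (27.1%) rose and 291 (30.3%) fell, beside 20.6% and 20.3% of all genes. Of the 979, 288 (29.4%) fell and 129 (13.2%) rose in TRDKO intestine. Without TRDKO T3 replicate 3, 29.7% of all genes rose and 28.1% fell in TRDKO intestine. Of the 960, 277 (28.9%) then rose and 320 (33.3%) fell, and of the 979, 299 (30.5%) fell and 239 (24.4%) rose. For changes of any size in TRDKO, the shares of the 960 that rose and of the 979 that fell were thus near those of all genes without that library. With all libraries, 111 of the 960 (11.6%) rose at least 2-fold in TRDKO intestine and 167 (17.4%) fell at least 2-fold. Of the 979, 90 (9.19%) fell and 46 (4.70%) rose at least 2-fold there. Over all genes, 2.32% rose and 3.83% fell by that much. At any size of change, shared genes were 8.14% of the TRDKO rises and 9.15% of the TRDKO falls.

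Some response genes differed in size between genotypes or organs by an interaction test. The rise of mmp11 was larger in WT than in TRDKO intestine by 5.49 ± 0.41 on the log2 scale (edgeR adjusted p = 9.3e-08), and that of thrb by 1.44 ± 0.20 (edgeR adjusted p = 3.4e-05). The change of klf9 was smaller in WT than in TRDKO intestine, by -1.86 ± 0.39 (edgeR adjusted p = 0.00131). For thibz the difference between genotypes was 0.24 ± 0.44 and did not pass (edgeR adjusted p = 0.761). Against WT tail, thibz rose more in WT intestine by 1.45 ± 0.39 and mmp11 by 5.11 ± 0.42 (edgeR adjusted p = 0.00391 and 1.2e-10). Interactions of genotype and T3 passed for 52.3% of genes tested in intestine, and interactions of organ and T3 for 39.5% of 17887 genes in WT, so a difference of this kind was common.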

How the data were processed

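RNA was extracted with RNeasy columns and made into TruSeq Stranded Total RNA libraries, per the labels' protocols. Per the submitters' processing notes, reads were handled with cutadapt 3.2, STAR 2.7.7a and featureCounts of Subread 2.0.1. The authors deposited 1 table of raw counts, which holds 26531 genes and 24 libraries. Per the file headers, fragments with both ends mapped were counted on the reverse strand, at gene_name level, against the XENTR_10.0 annotation, without removal of duplicates. Totals were 17577407 to 24699154 counts. Coordinates come from the position columns of the deposited count table, in the XENTR_10.0 annotation. Of its symbols, 26530 matched the RefSeq table of UCB_Xtro_10.0 by name.

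Genes with low counts were removed by filterByExpr, leaving 15491 in intestine. The 12 intestine libraries were scaled by trimmed means (TMM) and fitted with 1 coefficient per group in edgeR 4.0.16 (R 4.3.3), using the robust quasi-likelihood test and Benjamini-Hochberg adjustment at 0.05. The ± after a log2 fold change is an approximate standard error, the absolute log2 fold change over the square root of the test's F value. For genes near 0 in a group it need not cover the counting error. CPM are counts per 1000000 of the scaled library. Tail and organ interactions came from a fit of all samples. Counting intervals and floors cover counting error only. On data simulated for this comparison, 24%, 78%, 98% and 98% of genes changed by 1.2, 1.5, 2 and 4-fold were recovered (50 genes each), with 6 false calls among 15291 unchanged genes. Only these few genes were changed there, whereas 60.5% of genes passed in the data. The simulated rates therefore need not hold for the data.

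Gene lists and other members were chosen with earlier results of these data known, so their directions are not independent evidence, and no list was tested as a set. List members absent from the table or under the filter entered no count of tested members. Members of the lists of receptors, T3 response, heat shock and immediate early genes could be named. In other lists up to 6 members that passed were named, by largest change with at least 1 CPM in the higher group. Over all genes, the 15 largest rises and falls were eligible by log2 fold change and by difference of mean CPM, with at least 5 CPM in the higher group and no overlap. Other genes are said to have been chosen after their values were seen. Whether same-numbered replicates were paired is not given in the labels, and their deviations correlated only weakly (0.0209, 0.00719 and 0.0245). Alternatives were other scalings, no filter, DESeq2 1.42.0, a replicate block, a 1.5-fold threshold test, other sets of libraries in the fit, and leaving out single libraries. Promoter motifs were not analysed here.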

Additional observations from a re-analysis of the deposited data

Results flagged for a closer look

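For 8 of the T3 response genes named above, the size of the T3 effect differed between WT intestine and another genotype or organ by an interaction test (edgeR adjusted p below 0.05), and values are given as the WT intestine effect minus the other effect on the log2 scale. Against TRDKO intestine, the differences were 1.44 for thrb, 5.49 for mmp11, 7.48 for dio3, 2.11 for sox4 and 0.68 for nfic. For klf9 the difference against TRDKO intestine was -1.86. Against WT tail, the differences were 1.43 for thrb, 1.45 for thibz, 1.71 for klf9, 5.11 for mmp11, 2.11 for dio3, 0.51 for nfic, 1.17 for nfib and 0.43 for sox4.

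Some of these rested on single libraries. Without WT control replicate 1, the nfic difference against TRDKO intestine (0.55) did not pass. The nfic difference against WT tail no longer passed without WT control replicate 1 (0.39) or replicate 3 (0.50), or without the filter on low counts (0.45). The nfib difference against TRDKO intestine passed under the replicate block (0.38), with upper-quartile scaling (0.46) and without TRDKO T3 replicate 3 (0.22), and not otherwise. Interactions of these kinds passed for 52.3% and 39.5% of all genes.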

How the results depend on the processing

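The 9379 genes called in WT intestine became 2416 when the test asked for more than 1.5-fold (glmTreat, 1134 higher and 1282 lower), which counts fewer genes by its construction. Other counts over all genes stayed within 1.5 times of the main value, while counts of several gene lists did not and are given with their lists. For all genes the counts were 8837 with DESeq2, 9480 with upper-quartile scaling (57.1% of them higher), 11044 from the 6 WT libraries alone and 11235 without TRDKO T3 replicate 3. Without that TRDKO library 5595 genes rose and 5640 fell, against 4692 and 4687 in the main fit. List counts given without it read against these. Leaving out each WT library in turn gave 8526 to 8682 genes, and 1955 to 1996 genes of at least 2-fold against 1939. It gave 7433 to 7585 interactions with genotype, 6485 to 6653 with organ, 8011 to 8865 differences between WT control and TRDKO control, and 6062 to 6162 genes in TRDKO intestine. With a replicate block the count was 9238, a value that cannot be read as a paired result, since the labels give no pairing. Each sample's deviations correlated best with its own number, a hint from the data only. The block was not run for the organ interaction, since a summed tail sample holds 2 numbers. Counting depth limits genes under about 1 CPM.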

Other observations

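Clock genes, which time daily rhythms in most cells, moved in both directions. Of 24 tested members, 6 rose (25.0%) and 11 fell (45.8%) in WT T3, beside 30.3% of all genes in each direction. The activator gene arntl, the nuclear receptor gene rora and the repressor gene nfil3 fell (-1.93 ± 0.09, -1.53 ± 0.22 and -1.42 ± 0.07 on the log2 scale), while the repressor genes cry2 and ciart rose (0.67 ± 0.05 and 0.95 ± 0.11). Hypoxia and glycolysis genes fell in 22 (48.9%) of 45 cases and rose in 11 (24.4%), with a median of -0.15. Their summed levels overlapped, at 13601 to 14307 CPM in WT T3 and 13854 to 14419 in WT control. The glycolytic regulator gene pfkfb3 averaged 36.6 CPM in WT T3 and 115 in WT control, the glucokinase gene gck 38.05 and 103, and the glucose carrier gene slc2a1 37.3 and 90.3. The pyruvate dehydrogenase kinase gene pdk3 rose (1.40 ± 0.19).

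Genes of polyamine, nucleotide and one-carbon metabolism fell in 13 (39.4%) and rose in 7 (21.2%) of 33 tested cases, beside 30.3% of all genes in each direction. Their median log2 fold change was -0.08. Their summed levels overlapped, at 5194 to 5354 CPM in WT T3 and 5267 to 5374 in WT control. The gene mat2a, whose enzyme makes the methyl donor S-adenosylmethionine, averaged 72.3 CPM in WT T3 and 295 in WT control. Subunits of oxidative phosphorylation rose in 15 (27.3%) and fell in 3 (5.45%) of 55 cases, beside 30.3% of all genes in each direction. They rose in 34 and fell in 8 without TRDKO T3 replicate 3, where more of all genes passed too. Without WT T3 replicate 1 or WT control replicate 3 they rose in 9. Among them, the complex II subunit gene sdha fell (-0.87 ± 0.06). Nerve and glia genes rose in 23.8% and fell in 9.52% of cases, beside 30.3% of all genes in each direction. Of their 5 rises, 4 were at least 2-fold, and the 5 became 3 in the fit of only the 6 WT intestine libraries. The neural crest and enteric factor gene hand2 had the largest rise of those members that held at least 1 CPM. It had 10.8, 10.04 and 10.3 CPM in WT T3 and 3.88, 5.299 and 3.76 in WT control. The cardiac actin gene actc1 averaged 401 CPM in WT T3, 198 in WT control, 82.6 in TRDKO T3 and 187 in TRDKO control.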
